A study of Mus musculus with 8 samples.

Results

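Smco1, Ctxn3 and Adhfe1 are 3 of the 22880 genes counted in soleus muscle, and all 3 passed the filter on low counts that left 14001 tested genes. They were picked from a ranking of genes lower in Dnm2 +/K562E than in control soleus, so they were chosen by the genotype difference in these same mice. Their difference between genotypes is therefore given as a description, with no test. The soleus, a calf muscle rich in slow fibres that holds posture, was taken from 8 male C57BL/6 mice (of the J substrain by the methods) aged 2 months, 4 control mice of genotype Dnm2 +/+ and 4 heterozygous Dnm2 +/K562E mice. Dnm2 encodes dynamin 2, a GTPase that cuts vesicles from membranes, and the K562E allele sits at the endogenous locus in every cell of the mutant mice. Each library came from the whole muscle of 1 mouse. The free-text description of 1 mutant library spells the allele differently, and it was placed by its title.

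The 3 genes encode unrelated proteins. Smco1 encodes a single-pass membrane protein with coiled-coil domains, whose function in muscle is little described. Ctxn3 encodes cortexin 3, a very short single-pass membrane protein of the cortexin family, a family named for its expression in the brain cortex. Adhfe1 encodes the iron-containing alcohol dehydrogenase 1, a mitochondrial hydroxyacid-oxoacid transhydrogenase. This enzyme oxidizes 4-hydroxybutyrate to succinic semialdehyde and in the same reaction reduces 2-oxoglutarate, an intermediate of the citric acid cycle, to D-2-hydroxyglutarate.

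Depth ran from 33407430 to 48832814 counts per mouse, with the highest total in control 3. No library was a repeat of another, since each pair of mice of 1 genotype gave a chi-square of at least 12.6 per degree of freedom. Total Dnm2, which adds the reads of both alleles and so does not check the genotype, had a control mean of 66.3 ± 4.74 normalized CPM and a Dnm2 +/K562E mean of 73.4 ± 2.43 (SD, n = 4 each). Normalized CPM are counts relative to library size (CPM), scaled between mice by the TMM method of edgeR. Myh7, the slow myosin heavy chain that marks the soleus, was abundant in every mouse. It had 6014 ± 263 normalized CPM in controls and 4193 ± 391 in mutants (SD, n = 4 each). The fast-fibre myosin gene Myh2 was higher still, at 9753 ± 611 and 6343 ± 496 (SD, n = 4 each). In whole-muscle RNA, fewer fibres that express a gene and less of its RNA per fibre cannot be told apart.

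Smco1 (ENSMUSG00000046345) lies on the plus strand of chromosome 16 of GRCm38, from 32271468 to 32274781, in 3 exons that code for 214 residues. The window around its start is shown because Smco1 leads the ranking and is the member with a promoter in the RefSeq table used here (build GRCm38.p6, chr16:32271230-32271529, plus strand, 250 bases before to 50 after the start). Capitals mark the E-box, CANNTG, to which myogenic factors of the MyoD family bind.

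Smco1 promoter: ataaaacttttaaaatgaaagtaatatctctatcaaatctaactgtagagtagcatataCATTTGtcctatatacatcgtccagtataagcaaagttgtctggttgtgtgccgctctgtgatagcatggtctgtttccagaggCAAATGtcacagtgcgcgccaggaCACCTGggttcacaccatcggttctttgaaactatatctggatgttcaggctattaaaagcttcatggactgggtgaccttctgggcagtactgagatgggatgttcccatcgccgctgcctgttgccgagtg

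The RefSeq start, from which positions are counted here, lies slightly downstream of the GENCODE start given above. The E-box occurred 3 times in this window, beginning 191, 107 and 83 bases before the start, and was present on either strand in 72.3% of the 32851 promoters of the table. The MEF2 site, searched by its consensus, did not occur in these letters and was found in 3.2% of promoters. The CArG box, bound by serum response factor, was likewise without a match and was found in 1.6%. TATAAA, present in 13.6% of promoters, was not matched. AGGTCA, a sequence bound by nuclear receptors, occurred once on the minus strand and in 16.3% of promoters. These matches describe the letters alone.

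Smco1 was measured at 18.8, 17.7, 18.6 and 18.7 normalized CPM in controls 1 to 4 and at 3.86, 3.95, 3.79 and 3.32 in Dnm2 +/K562E mice 1 to 4. The means were 18.4 ± 0.515 and 3.73 ± 0.279 (SD, n = 4 each), so that mutant soleus held 20.2% of the control level. The genotypes were widely separated, and the lowest control lay 4.47-fold above the highest mutant mouse. The fitted log2 fold change was -2.30 (standard error 0.09). These values rest on 595 to 831 counts per control and 123 to 170 counts per mutant mouse. The coefficient of variation between mice was 2.79% in controls and 7.48% in mutants. Counting alone gives 3.47% to 4.10% and 7.67% to 9.02% at these counts. A ranking by p-value favours genes with a small spread within genotypes, so the low spread of Smco1 belongs to the values by which it was chosen.

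Part of the Smco1 transcript is not unique to the gene. Of its 1369 stretches of 31 bases, 208 (15.2%) also occur in transcripts of 1402 other genes, and no single gene shares more than 84 of them. They lie between bases 830 and 1330 of the transcript, after the coding part, which ends at base 783. The coding part shares no such stretch on the same strand. On the opposite strand 192 stretches (14%) have a match in other genes. The counting required a mapping quality of at least 10, and the number of Smco1 reads this left out was not tested.

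Ctxn3 (ENSMUSG00000069372) lies on chromosome 18 from 57468516 to 57478133, on the plus strand, and its main transcripts code for 80 residues. It was measured at 32.2, 35.4, 38.2 and 36.2 normalized CPM in controls 1 to 4 and at 8.01, 9.16, 8.80 and 6.95 in Dnm2 +/K562E mice 1 to 4. The lowest control lay 3.51-fold above the highest mutant mouse, with no overlap. The means were 35.5 ± 2.52 and 8.23 ± 0.981 (SD, n = 4 each), and the mutant mean was 23.2% of the control mean. The log2 fold change was -2.11 (standard error 0.10). Ctxn3 varied more between mice than Smco1, with coefficients of variation of 7.10% in controls and 11.9% in mutants, where counting alone gives 2.42% to 3.04% and 5.04% to 6.24%. No stretch of 31 bases of its transcripts occurs in another gene, and its exons overlap no other counted gene.

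Adhfe1 (ENSMUSG00000025911) lies on the plus strand of chromosome 1, from 9547948 to 9580673, and its principal transcript has 14 exons and codes for 465 residues. It was measured at 53.7, 54.2, 50.7 and 46.9 normalized CPM in controls 1 to 4 and at 13.0, 14.1, 13.6 and 11.3 in Dnm2 +/K562E mice 1 to 4. Again no mutant mouse reached the controls, and the lowest control lay 3.34-fold above the highest mutant. The means were 51.4 ± 3.34 and 13.0 ± 1.20 (SD, n = 4 each), and the mutant mean was 25.3% of the control mean. The log2 fold change was -1.98 (standard error 0.08). Adhfe1 had the highest counts of the 3 genes, 1594 to 2263 per control and 419 to 605 per mutant mouse. On the opposite strand, 99 of its 3833 stretches (2.58%) occur in the noncoding gene 2610203C22Rik, which is not among the counted genes. The labels name a stranded kit, but a strand setting of the counting is not given in the sources used here.

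**Figure D1:**
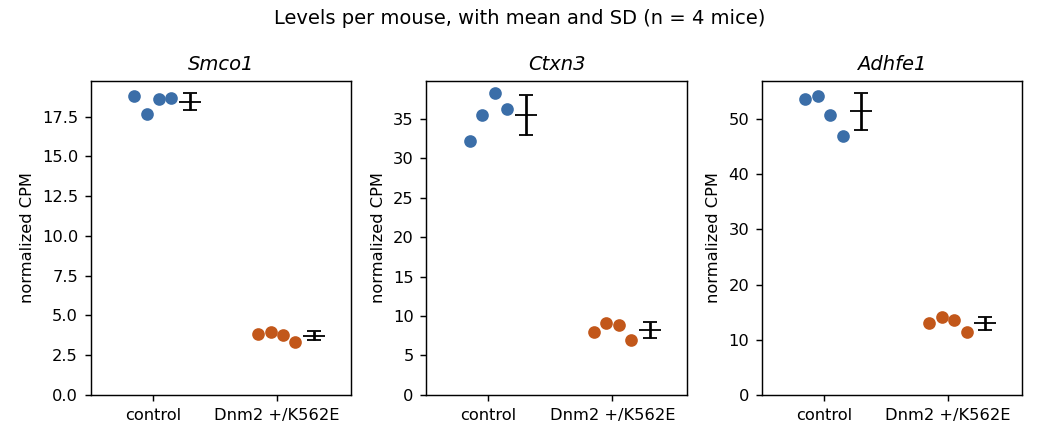
Normalized CPM (vertical axes, from 0) of Smco1, Ctxn3 and Adhfe1 in each mouse, controls in blue and Dnm2 +/K562E mice in orange, with the mean and SD of 4 mice beside the points. In all 3 genes the mutant mice lie below every control, by a gap of 3.34-fold to 4.47-fold between the nearest mice.

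Per kilobase of exon, the levels of the 3 genes can be set beside each other as RPKM (normalized CPM divided by the length of the annotated exons in kilobases). In controls Ctxn3 was highest at 22.1 ± 1.57 RPKM (SD, n = 4), and its mice did not overlap those of the other genes. Adhfe1 at 13.6 ± 0.883 and Smco1 at 13.1 ± 0.365 RPKM (SD, n = 4 each) did not differ beyond their spread. In Dnm2 +/K562E mice the order was the same, with 5.13 ± 0.611 for Ctxn3, 3.44 ± 0.318 for Adhfe1 and 2.65 ± 0.198 RPKM for Smco1 (SD, n = 4 each). There the lowest Adhfe1 value, 3.00 RPKM, lay above the highest Smco1 value, 2.80. The ratio of Smco1 to Adhfe1 within a mouse was 0.875 to 1.07 in controls and 0.747 to 0.796 in mutants. That of Ctxn3 to Adhfe1 was 1.41 to 1.82 in controls and 1.44 to 1.53 in mutants, and overlapped.

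In rank by RPKM, the 3 genes moved from the upper part of the transcriptome towards its middle. Among the 13955 tested genes with an annotated exon length, Ctxn3 was at rank 1523 from the top in controls and 5312 in mutants. Adhfe1 was at rank 2476 in controls and 6845 in mutants, and Smco1 at 2564 and 7776. Within the mutant group the 3 genes also had the same extremes. Mouse 2 was the highest and mouse 4 the lowest for each gene, and this held as well in plain CPM without TMM scaling, for example with 4.36 and 3.45 for Smco1. In controls no mouse was the highest for more than 1 of the genes.

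The ranking from which the genes came held 1099 genes called lower, 7.85% of those tested, by the quasi-likelihood test of edgeR. A call needed a Benjamini-Hochberg adjusted p below 0.05 and a log2 fold change no nearer to 0 than -0.58. Genes called higher made up 12.9%, and 20.5% of the tested genes were lower in every mutant mouse than in every control. Scaled by library size alone, without TMM factors, 564 genes were called lower and 2865 higher, where the TMM scaling gave 1099 and 1806. By p-value Smco1 was at rank 1, Adhfe1 at rank 2 and Ctxn3 at rank 4 of the lower genes. By log2 fold change they were at ranks 34, 55 and 46, in the same order of genes. Between the chosen genes in this ranking, but not among them, lay Dhrs7c, a dehydrogenase of the sarcoplasmic reticulum (rank 3, 17.2% of the control mean). Just after them came Tmod4, which caps the thin filaments of skeletal muscle (rank 5, 40.9%). Ranks 6 to 10 were held by the potassium channel subunit Kcng4 (8.08%), Asb11 (29.6%), the insulin-responsive glucose transporter Slc2a4 (49%), the epoxide hydrolase Ephx2 (37.6%) and the muscle sodium channel Scn4a (49.6%).

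**Figure D2:**
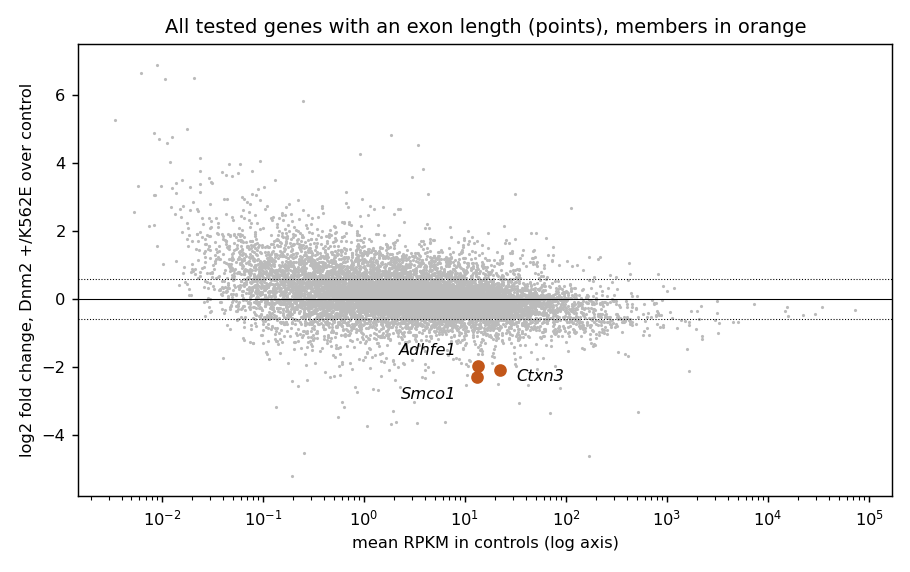
Log2 fold change (Dnm2 +/K562E over control, vertical axis) against mean RPKM in controls (log axis) for each tested gene with an exon length as a grey point, with Smco1, Ctxn3 and Adhfe1 in orange. Dotted lines mark log2 fold changes of 0.58 in either direction, and the 3 genes sit near -2 at 13.1 to 22.1 RPKM, well below the body of genes of their level.

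To find the genes whose pattern was most like each of the 3, the log2 CPM of every gene was set relative to its control mean, and the root mean square difference over the 8 mice was taken. By this measure Ctxn3 was among the nearest genes to both others, while Smco1 was only at place 13 for Adhfe1 (0.23). Ctxn3 was the tested gene most like Smco1 (0.16 on the log2 scale), and Adhfe1 was most like Ctxn3 (0.14). For Smco1 the next were Dhrs7c (0.23), Adhfe1 (0.23), Lrrc38, an auxiliary subunit of potassium channels (0.24), and Slc16a3, the lactate transporter MCT4 (0.24). For Ctxn3, Smco1 was followed by Ramp1, a partner of the calcitonin-receptor-like receptor (0.19), the guanylate-binding protein gene Gbp6 (0.19) and Mlf1 (0.20). For Adhfe1 the nearest was Maob, a monoamine oxidase of the outer mitochondrial membrane (0.14), before Ctxn3 (0.14), the myogenic factor Myf5 (0.18), Ramp1 (0.18) and Mlf1 (0.19). By Pearson correlation over the same mice instead, 2, 1 and 0 of these 5 genes remained among the first 5 for Smco1, Ctxn3 and Adhfe1, so the names depend on the measure. The control libraries are the same for all of these genes, and the measure mainly follows the size of the decrease. That size is part of the values by which the 3 genes were chosen.

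**Figure D3:**
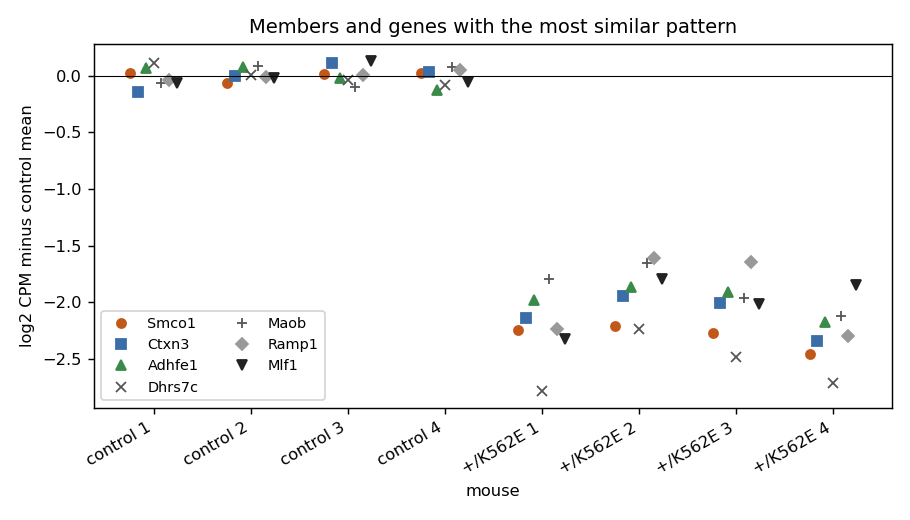
Log2 CPM minus the control mean (vertical axis) in each of the 8 mice (horizontal axis) for Smco1, Ctxn3, Adhfe1 and for Dhrs7c, Maob, Ramp1 and Mlf1, which are among the genes most like them, with 1 symbol per gene. The controls lie near 0, and in the mutant mice Smco1 lies below Ctxn3 and Ctxn3 below Adhfe1 in each mouse.

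The enzymes of the substrates and products of Adhfe1, listed together with the succinyl-CoA ligase that follows in the citric acid cycle, were lower as a group, though less than Adhfe1 itself. Of 20 listed genes, 18 were tested, 10 were called lower and none was called higher (quasi-likelihood test of edgeR), against 7.85% called lower over all genes. At an adjusted p under 0.05 alone, 14 were lower and 1 was higher, where 3036 and 3103 of the 14001 tested genes were. The median log2 fold change of the list was -0.67, whereas that of all tested genes was 0.01. None of the 18 had a larger decrease than the 3 chosen genes. The 36 genes of respiratory complex I, described below, had a median of -0.64, and 25 of them were called lower. A decrease of this size was thus not particular to the Adhfe1 list.

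On the side of 4-hydroxybutyrate the enzymes did not move together. Aldh5a1, which oxidizes succinic semialdehyde to succinate, was measured at 13.4, 9.77, 8.67 and 8.51 normalized CPM in controls 1 to 4 and at 4.78, 6.69, 6.73 and 5.84 in mutants 1 to 4. It fell by 0.74 on the log2 scale (SE 0.17, adjusted p = 0.00434, quasi-likelihood test of edgeR), and its genotypes did not overlap. With library size alone it stood at -0.53, under the fold threshold. Akr7a5, a reductase of succinic semialdehyde, stood at -0.37 on the log2 scale (adjusted p = 0.00183, same test), below the fold threshold. Akr1a1, an aldehyde reductase that forms 4-hydroxybutyrate, went the other way at 0.22 (adjusted p = 0.00672, same test), from 157 ± 5.15 to 183 ± 6.91 normalized CPM (SD, n = 4 each). Abat, the GABA transaminase that supplies succinic semialdehyde, did not pass the test (-0.15, adjusted p = 0.187, same test). Gad1 and Gad2, which make GABA, were below the filter, with genotype means of 0.117 normalized CPM or less.

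D2hgdh, which oxidizes the D-2-hydroxyglutarate made by Adhfe1, did not pass the test (-0.17, adjusted p = 0.269, edgeR quasi-likelihood test). Its genotypes overlapped, with 13.8 to 16.5 normalized CPM in controls and 11 to 16.0 in mutants. Idh2, the mitochondrial NADP-dependent isocitrate dehydrogenase, had the largest decrease of the list, from 975, 1197, 1137 and 919 normalized CPM in controls 1 to 4 to 295, 361, 360 and 311 in mutants 1 to 4, with no overlap. On the log2 scale it fell by 1.67 (SE 0.10, adjusted p = 1.20e-06, same test). The cytosolic Idh1 did not pass the test (0.17, adjusted p = 0.615, same test). Control 1 had 71.4 normalized CPM of Idh1 and the other controls 27.1 to 32.9, and without control 1 the log2 fold change was 0.58 (adjusted p = 0.00108, same test), just under the fold threshold.

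The enzymes of the citric acid cycle that supply or consume 2-oxoglutarate, and the succinyl-CoA ligase after them, were lower more evenly. The 3 subunits of the NAD-dependent isocitrate dehydrogenase, Idh3a, Idh3b and Idh3g, had log2 fold changes of -0.85, -0.94 and -0.97. The 2-oxoglutarate dehydrogenase genes Ogdh, Dlst and Dld had -0.76, -0.66 and -0.68, and the succinyl-CoA ligase genes Suclg1 and Suclg2 had -0.84 and -0.75. All 8 were called lower, with adjusted p from 1.29e-06 for Idh3g to 3.49e-05 for Dld (same test). Sucla2 (-0.56), Got2 (-0.41) and Glud1 (-0.29) passed the adjusted p but not the fold threshold, which Sucla2 passed without control 4 (-0.61) or without mutant 4 (-0.60). Without any 1 of the mice, 10 or 11 genes of the list were called lower, and with library size alone 5 were, the calls of Aldh5a1 (-0.53), Ogdh (-0.55), Dlst (-0.45), Dld (-0.47) and Suclg2 (-0.53) being lost.

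**Figure D4:**
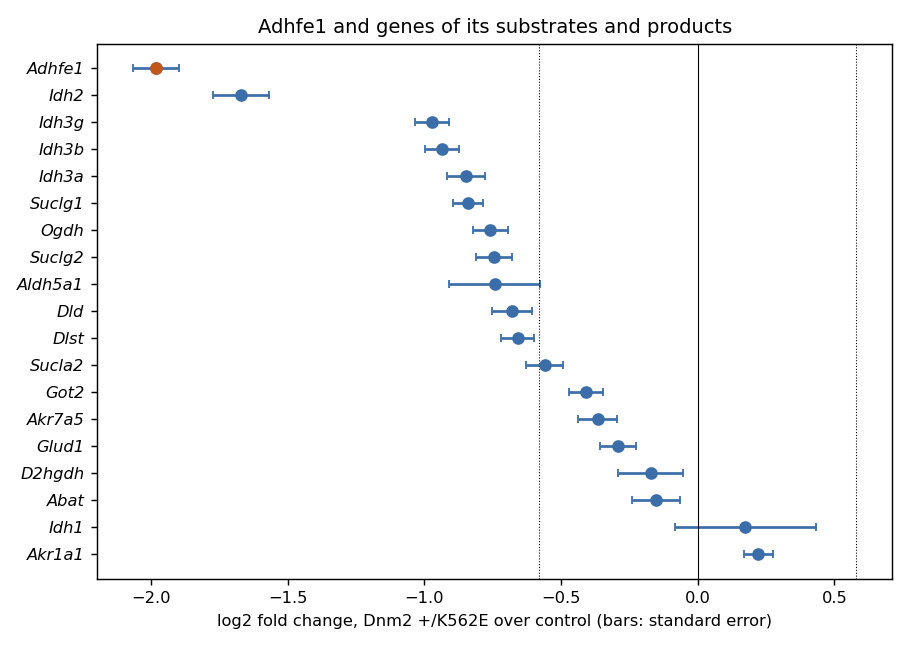
Log2 fold change (Dnm2 +/K562E over control, horizontal axis) with its standard error for Adhfe1 in orange and the 18 tested genes of its substrates and products, succinyl-CoA ligase included, in blue, ordered by value. Dotted lines mark 0.58 in either direction, and Idh2 at -1.67 is the list gene nearest to Adhfe1 at -1.98.

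Genes that share a family or a family name with the 3 did not show decreases of that size. Of the SMCO genes, which are alike in name and layout, Smco4 was measured at 6.94 to 10.3 normalized CPM in controls and 5.07 to 7.46 in mutants, with overlap (log2 fold change -0.47, adjusted p = 0.0386, edgeR quasi-likelihood test). Smco3, near 1 normalized CPM, did not pass the test (-0.27, adjusted p = 0.459, same test), and Smco2 was below the filter. Of the other cortexins, Ctxn1 was at 0.536 ± 0.150 normalized CPM (SD, n = 4) in controls and did not pass the test (0.26, adjusted p = 0.593, same test), and Ctxn2 had no counts in any mouse. Per length, Ctxn3 at 22.1 RPKM in controls thus stood far above Ctxn1 at 0.442 RPKM. Among the other alcohol dehydrogenases, Adh5 stood at -0.27 on the log2 scale (adjusted p = 0.00242, same test), and Adh1 (0.35, adjusted p = 0.342) and Adh7 (0.16, adjusted p = 0.826) did not pass the test. Adh1 was high in control 1, and without that mouse it stood at 0.69 (adjusted p = 0.0233, same test) and was called higher. Adh4 and Adh6a were below the filter, and Adh6b was matched to no counted gene.

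None of the nearest tested genes on the chromosomes of the 3 was called lower. For each member the 3 nearest on either side were taken, 18 in all, where 7.85% of all tested genes were called lower, so a count of 0 lies near that background. Beside Smco1, Rnf168 begins 2.7 kb after its end and differed by -0.02 on the log2 scale (adjusted p = 0.901, edgeR quasi-likelihood test), and Wdr53 lies 14.4 kb before it (-0.18, adjusted p = 0.336, same test). Nrros had 0.56 (adjusted p = 0.0287, same test), just under the fold threshold, and without control 4, its highest control, it was called higher (0.75, adjusted p = 0.00316, same test). Beside Ctxn3, Prrc1 at 75.6 kb had -0.11 (adjusted p = 0.19) and Slc12a2, a sodium, potassium and chloride transporter, -0.24 (adjusted p = 0.0216, same test). Further away, the fibrillin gene Fbn2 at 530.5 kb (1.19, adjusted p = 0.00117, same test) and Slc27a6 at 1078.1 kb (2.09, adjusted p = 0.0132, same test) were called higher. Slc27a6 was low, at 0.0896 to 1.70 normalized CPM in controls and 2.25 to 3.70 in mutants. Without control 1, its highest control, Slc27a6 had 3.11 (adjusted p = 2.43e-04, same test). With at least 10 counts required in every mouse, only 1 of the Ctxn3 neighbours was called higher. Rrs1 lies 0.5 kb before Adhfe1 on the chromosome and differed by -0.31 on the log2 scale (adjusted p = 0.0918, same test), with Mybl1, Vcpip1 and Sgk3 after it from -0.20 to 0.62, of which none passed the test. With library size alone Mybl1 was called higher (0.83, adjusted p = 0.0449, same test). The next tested genes before Rrs1, Pcmtd1 and Rb1cc1, lie 2374.3 and 3271.3 kb away and are hardly neighbours. With all tested genes within 500 kb taken instead, 16, 4 and 7 genes around Smco1, Ctxn3 and Adhfe1, none was called lower either. Of these, 1 gene around Smco1 and 1 around Adhfe1 were called higher, with largest log2 fold changes of 0.74 and 1.97.

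**Figure D5:**
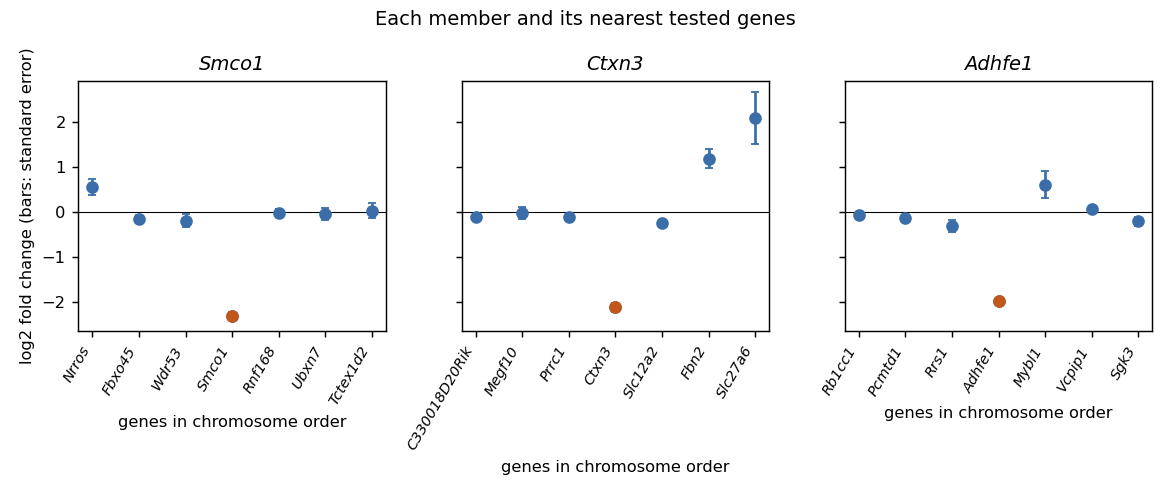
Log2 fold change (vertical axis) with its standard error for each of Smco1, Ctxn3 and Adhfe1 in orange and the 3 nearest tested genes on each side in blue, in chromosome order (not to scale). The neighbours lie between -0.31 and 2.09 and the 3 genes between -2.30 and -1.98.

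Other genes of the muscle fibre moved with the 3 genes, and for most of them the difference was smaller. Over all tested genes, 7.85% were called lower and 12.9% higher, and at an adjusted p under 0.05 alone 3036 of 14001 were lower. Of 12 general muscle fibre genes, 2 were called lower and 1 higher, with a median of -0.46 on the log2 scale. At that adjusted p alone 10 were lower. Ckm, the muscle creatine kinase, had -1.02 and the intermediate filament gene Des 0.72. Their summed level was 68528 to 75675 normalized CPM in controls and 49438 to 56031 in mutants. Relative to that sum, taken per mouse as a measure added after the data were seen, the log2 difference was -1.91 for Smco1, -1.71 for Ctxn3 and -1.58 for Adhfe1, with no overlap between genotypes. Of the 8 slow-fibre genes 3 were called lower, and of the 9 fast-fibre genes 7 were, with medians of -0.53 and -0.69. With library size alone these calls became 1 of 12 general, 1 of 8 slow and 3 of 9 fast genes lower. The fast genes summed to 40090 to 42135 normalized CPM in controls and 23544 to 27696 in mutants. Relative to them, the differences were -1.59 for Smco1, -1.40 for Ctxn3 and -1.27 for Adhfe1, again with no overlap. The ratios to both sums reuse the values by which the 3 genes were chosen. Their lack of overlap is therefore a description and no separate evidence.

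In the fibre lists 3 genes, chosen for mention after their values were seen, had decreases of the size of the 3 genes or larger. Myl3, the slow-fibre and ventricular myosin light chain, was at 3149, 3429, 3722 and 3125 normalized CPM in controls 1 to 4 and at 554, 935, 993 and 606 in mutants 1 to 4, and it fell by 2.12 on the log2 scale (adjusted p = 7.36e-06, quasi-likelihood test of edgeR). Its controls were as close to each other as those of Ctxn3, whereas those of the other two genes were far apart. Myh4, the myosin heavy chain of the fastest fibres, was at 426, 372, 163 and 3134 normalized CPM in controls 1 to 4 and at 34.0 to 50.9 in mutants. Pvalb, the calcium buffer parvalbumin, was at 342, 407, 469 and 946 in controls 1 to 4 and at 23.5 to 76.9 in mutants. Control 4 was thus the highest for both, whereas it lay within the range of the other controls for Smco1 and Ctxn3 and was the lowest control for Adhfe1. The highest control exceeded the lowest by 1.06-fold for Smco1, 1.19-fold for Ctxn3 and 1.15-fold for Adhfe1.

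As a measure of mitochondrial genes, 36 genes were picked by symbol for respiratory complex I (Nduf with a, b, c, s or v and a number). They lay between -0.999 and -0.33 on the log2 scale, with a median of -0.64. Of these, 25 were called lower and none higher (5 lower with library size alone), where 7.85% of all tested genes were called lower. All 36 lay above the values of the 3 genes. Relative to the summed level of these genes, Adhfe1 had a log2 difference of -1.32, Smco1 of -1.64 and Ctxn3 of -1.45.

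Markers of other cell types moved in both directions, where 7.85% of all tested genes were called lower and 12.9% higher. At an adjusted p under 0.05 alone, 3036 of the 14001 tested genes were lower and 3103 higher. All 7 macrophage genes were called higher, with a summed level of 72.8 to 135 normalized CPM in controls and 179 to 296 in mutants. All 6 fibroblast and matrix genes were called higher as well, summing to 2002 to 2936 and 4755 to 6196 normalized CPM. Of 5 endothelial genes 1, Kdr, was called lower, a call lost with library size alone or without mutant 2, and all 5 were lower at the adjusted p alone, with sums of 921 to 968 and 651 to 751 normalized CPM. None of 5 Schwann cell genes and none of 4 adipocyte genes was called at these thresholds, and 1 Schwann cell gene, Mbp, passed the adjusted p alone (log2 fold change -0.24, adjusted p = 0.0141, edgeR quasi-likelihood test). The Schwann cell genes summed to 181 to 200 and 153 to 188 normalized CPM, and the adipocyte genes to 78.4 to 422 and 131 to 233. Of 4 satellite cell genes, Pax7, Myf5 and Calcr were called lower, from levels of 6.79, 3.31 and 2.14 normalized CPM in controls to 24.2%, 27.8% and 8.95% of these, and Chodl was called higher. The decreases of Pax7 and Calcr were of the size of those of the 3 genes or larger, and that of Myf5 was slightly smaller. The part of these cell types, and of the fibre types, in the decrease of Smco1, Ctxn3 and Adhfe1 was not tested.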

How the data were processed

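Smco1, Ctxn3 and Adhfe1, the gene lists and the tests were chosen with earlier results of these data known. Per the labels and the methods, the authors trimmed reads with Trimmomatic 0.33, aligned them with STAR 2.5.1b to GRCm38.p5 (Ensembl gene models) and counted them with featureCounts. They deposited raw counts per gene and mouse, without normalization. Reads that overlapped more than 1 gene counted towards all of them, and multi-mapping reads only at their primary alignment, at a mapping quality of at least 10. By the methods the libraries were made from poly A RNA, by the labels with a stranded total RNA kit.

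Of the 22880 IDs, 22647 were matched to GENCODE M21 (same genome build) for symbols, positions and exon lengths. edgeR 4.0.16 in R 4.3.3 was used for filterByExpr (minimum count 10, minimum total 15), TMM factors (0.915 to 1.103) and the quasi-likelihood test, with Benjamini-Hochberg adjustment over 14001 genes. A call required an adjusted p below 0.05 with an absolute log2 fold change of 0.58 or more. Standard errors are those implied by the F statistic. Log2 CPM used a prior count of 2. P-values set the genotype difference against the spread between 4 mice per genotype, with the spread of each gene moderated by that of the other genes. Counting errors cover counting alone.

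Named genes are the 3 members, Dnm2, the genes of the lists, the 10 lower genes of smallest p, the 5 genes most like each member and its 3 nearest tested neighbours on each side. Myl3, Myh4 and Pvalb were picked out of their lists with their values known. A gene of the Adhfe1 pathway list is not reported here, and the counts of that list leave it out. The fit was tested on simulated data. Alternatives were DESeq2 1.42.0, the edgeR exact test, other scalings and filters, replicate blocks and leaving out each mouse.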

Additional observations from a re-analysis of the deposited data

Results flagged for a closer look

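In groups of 4 mice, Dixon's test marks about 1 group in 20 by chance, and of 92 groups of values it marked 6. Smco1 was marked in controls, where control 2 had 17.67 normalized CPM and the other 3 controls 18.6 to 18.8. Dnm2 was marked for control 3, at 59.21 normalized CPM against 68.5 to 68.8 in the other controls. Akr1a1 was marked for Dnm2 +/K562E mouse 3, at 193.8 normalized CPM against 179 to 181. Idh1 was marked for control 1, at 71.35 normalized CPM against 27.1 to 32.9. Beside Smco1, Nrros was marked for control 4, at 8.744 normalized CPM against 5.29 to 5.85, and beside Adhfe1, Sgk3 was marked for control 2, at 15.21 normalized CPM against 12.3 to 12.6. The other groups of Ctxn3 and Adhfe1 values were not marked.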

How the results depend on the processing

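Since Smco1, Ctxn3 and Adhfe1 were chosen for their decrease in these mice, other fits to the same counts are no independent evidence of it. Their log2 fold changes under DESeq2, the edgeR exact test, RLE factors, another or no filter on low counts and both replicate blocks were each within 0.02 of -2.30, -2.11 and -1.98. With library size alone they were -2.09, -1.89 and -1.77. That scaling moves the median of all tested genes from 0.01 to 0.22. It gave 564 lower and 2865 higher genes, and 5 lower genes in the Adhfe1 pathway list. With TMM factors and no fold threshold, 3036 genes were lower and 3103 higher. Leaving out 1 mouse at a time gave -2.33 to -2.25 for Smco1, -2.16 to -2.04 for Ctxn3, -2.03 to -1.92 for Adhfe1, 1026 to 1208 lower and 1588 to 1970 higher genes, and 10 to 11 lower pathway genes. Relative to summed muscle fibre, fast fibre and complex I genes, added after the data were seen, the values were -1.91, -1.59 and -1.64 for Smco1, -1.71, -1.40 and -1.45 for Ctxn3 and -1.58, -1.27 and -1.32 for Adhfe1. These smaller values follow from dividing by genes that were themselves lower.

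With the replicate number of the titles as a block, the values were -2.305 for Smco1, -2.113 for Ctxn3 and -1.984 for Adhfe1. Mice of the same number had a mean correlation of their deviations of -0.11 by title and -0.03 by description number, so the numbers were not taken to pair the mice.

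Some genes that were not called changed sign. With library size alone Abat had 0.058, D2hgdh 0.041, Wdr53 0.022, Fbxo45 0.055, Rnf168 0.19, Ubxn7 0.17, Prrc1 0.10, Megf10 0.19, C330018D20Rik 0.12, Pcmtd1 0.074, Rb1cc1 0.15 and Sgk3 0.014. Leaving out 1 mouse at a time gave -0.32 to 0.46 for Adh7, -0.051 to 0.031 for Rnf168, -0.11 to 0.12 for Ubxn7, -0.030 to 0.091 for Tctex1d2 and -0.082 to 0.046 for Megf10. The cause was not tested. With 123 to 170 Smco1 counts per mutant mouse, counting alone gives a coefficient of variation of up to 9.02% there.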
